A study of Rattus norvegicus with 6 samples.

Results

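Chaperones and chaperonins, the proteins that help other proteins fold, were followed in the rat heart primordium around the first heartbeat. The members were the genes on the array named as HSP70 (Hspa), HSP110 (Hsph), HSP90, HSP60 and HSP10 (Hspd1 and Hspe1), as J proteins (Dnaja, Dnajb and Dnajc), as subunits of the cytosolic chaperonin CCT (Tcp1 and Cct2 to Cct8 with their relatives), or as UNC45 myosin chaperones. The rule took genes by name and used none of their values, though it was set with earlier results of these data known, and the brightest probe stood for a gene with several. There were 74 such genes with 95 of the 30367 probes. For 64 of them the probe exceeded the scanner's background limit on every array of one group or both, and these were tested together with all other such probes, 19299 in total. Heart primordia of Wistar rats (written Wister in the sample labels) were taken on embryonic day 10, before or after the onset of beating. A flat centre of the primordium defined the pre-heartbeat group and a raised centre the post-heartbeat group, with 3 samples in each, 1 array per sample and no treatment in either. How many primordia made up an array's RNA, or whether samples came from separate litters, was not given in the sources used here, so p-values measure the spread between these samples, which may be technical. A primordium holds several cell types, and in such bulk samples more cells of a type and more RNA per cell cannot be told apart.

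HSP70 proteins bind unfolded stretches of a client and release them in a cycle driven by ATP, which J proteins start and HSP110 helps to reset. HSP90 takes over clients at a later stage, CCT encloses newly made actin and tubulin, and HSP60 with its lid HSP10 does the same inside mitochondria. UNC45 proteins work with HSP90 to fold the motor domain of myosin, and UNC45B is the form of striated muscle, in which it is needed for thick filaments to assemble. Many chaperone genes are switched on in stressed cells by heat shock factor, which binds the heat shock element, or by the unfolded protein response, which acts through the ER stress response element.

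Of the 64 tested members, Unc45b alone passed, in the selection of the study's methods and in limma with the slide of the array as a block, and it did not pass in limma without the block. The count of 1 is 1.56% of the tested members, near the 1.89% of all tested probes selected as higher and the 1.16% higher with the block, so it is no result about the members as a set. Its mean signal was 1.81 times as high in the post-heartbeat group, whereas its paralog Unc45a, which is expressed broadly, differed by 0.04 on the log2 scale. No family of general chaperones held a member that passed. In the post-heartbeat group, 44 of the 64 tested members (68.8%) were lower by small amounts, beside 55.3% of all tested probes. The small heat shock proteins, which hold unfolding proteins in a soluble state, were looked at as a related list. They held 5 genes selected as higher of 9 tested, beside 1.89% of all tested probes. That list was also chosen with earlier results of these data known, so its count is no test of the list.

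Promoters are shown for Unc45b and for 6 members that carry an element of the stress pathways before the start, so that the values below can be read beside them. Hspd1 is covered by the stretch of Hspe1, and the matches of Dnaja1 and Cct4 lie after the start and are not printed. The sequences are the 250 bases before the annotated start, from RefSeq on the rat build GRCr8, 5′ to 3′ on the strand of the gene. In all, 58 of the 74 members had an entry, 49 of them tested. The heat shock element was searched as GAANNTTCNNGAA and its reverse complement TTCNNGAANNTTC, and the ER stress response element as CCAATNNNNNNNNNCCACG and its reverse complement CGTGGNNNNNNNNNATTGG, in the 300 bases from 250 before to 50 after each start. Capitals mark the matches.
Unc45b, chr10:68342761-68343010, plus strand: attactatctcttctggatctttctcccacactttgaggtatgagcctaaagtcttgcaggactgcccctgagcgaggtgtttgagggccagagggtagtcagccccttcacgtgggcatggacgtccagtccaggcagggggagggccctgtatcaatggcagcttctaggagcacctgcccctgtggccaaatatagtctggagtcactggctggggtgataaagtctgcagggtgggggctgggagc
Hspa8, chr8:50080264-50080513, plus strand: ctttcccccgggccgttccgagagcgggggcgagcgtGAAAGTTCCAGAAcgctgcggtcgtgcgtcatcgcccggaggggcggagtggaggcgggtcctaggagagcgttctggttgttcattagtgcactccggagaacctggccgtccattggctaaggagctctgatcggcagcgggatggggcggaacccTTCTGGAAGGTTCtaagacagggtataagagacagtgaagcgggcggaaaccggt
Hsph1, chr12:10427118-10427367, plus strand: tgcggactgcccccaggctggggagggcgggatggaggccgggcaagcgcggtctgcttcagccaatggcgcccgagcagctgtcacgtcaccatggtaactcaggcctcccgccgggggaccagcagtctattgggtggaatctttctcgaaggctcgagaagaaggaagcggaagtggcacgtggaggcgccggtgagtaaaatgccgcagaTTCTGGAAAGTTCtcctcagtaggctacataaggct
Hspe1, chr9:64084077-64084326, plus strand: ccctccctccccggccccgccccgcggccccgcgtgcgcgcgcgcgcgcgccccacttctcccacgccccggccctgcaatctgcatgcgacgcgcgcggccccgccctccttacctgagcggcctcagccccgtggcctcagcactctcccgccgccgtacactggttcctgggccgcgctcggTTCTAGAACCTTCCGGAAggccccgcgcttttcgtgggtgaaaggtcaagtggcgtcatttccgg
Hspa5, chr3:38452766-38453015, plus strand: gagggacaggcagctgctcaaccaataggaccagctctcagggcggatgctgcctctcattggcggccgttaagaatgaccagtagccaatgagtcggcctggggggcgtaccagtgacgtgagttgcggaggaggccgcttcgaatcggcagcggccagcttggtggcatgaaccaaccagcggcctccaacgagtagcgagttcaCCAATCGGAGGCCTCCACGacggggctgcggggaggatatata
Hsp90b1, chr7:23012294-23012543, minus strand: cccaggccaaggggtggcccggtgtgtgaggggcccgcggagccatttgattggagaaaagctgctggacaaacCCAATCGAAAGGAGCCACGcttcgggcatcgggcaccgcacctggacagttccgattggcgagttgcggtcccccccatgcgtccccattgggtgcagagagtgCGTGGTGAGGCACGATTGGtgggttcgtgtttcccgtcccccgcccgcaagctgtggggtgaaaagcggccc
Dnajc3, chr15:102432417-102432666, plus strand: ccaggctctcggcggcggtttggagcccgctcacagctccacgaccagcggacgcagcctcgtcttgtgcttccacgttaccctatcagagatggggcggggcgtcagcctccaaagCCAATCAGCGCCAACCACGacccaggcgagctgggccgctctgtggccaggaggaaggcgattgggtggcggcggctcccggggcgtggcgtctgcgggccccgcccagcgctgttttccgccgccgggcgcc

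The heat shock element was in 267 of 33469 rat promoters (0.798%) and in those of 6 tested members, Hspa8, Hsph1, Hspd1, Hspe1, Dnaja1 and Cct4. Hspa8 had one match 213 bases and another 55 bases before its start. Hspd1 and Hspe1 are transcribed away from each other from starts with 289 bases between them, and overlapping matches form 1 run of 18 bases between both. The ER stress response element was in 22 promoters (0.0657%) and in those of 3 tested members, Hspa5, Hsp90b1 and Dnajc3, with 2 matches in Hsp90b1. In the window of Unc45b, no match was found to either element, to the CArG box or MEF2 site of muscle genes (searched on both strands, in 1.64% and 3.29% of promoters), or to the cyclic AMP response element TGACGTCA (1.83%), which was in Cct4, Dnajc27, Dnajc30 and Hsp90ab1. A match describes letters and does not show that a factor binds there.

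Signals below are log2 of the processed signal less the 75th percentile of the array, so that a difference of 1 is a change of 2 fold, and levels are compared only within a probe. A change was called by limma, a linear model fitted across all tested probes, at a Benjamini-Hochberg adjusted p under 0.05, first without and then with the slide as a block. The selection of the study's methods took genes past 1.5 fold whose p, before adjustment, was under 0.05. The arrays lay on 2 slides, the first with replicate 1 of the pre-heartbeat group and replicates 1 and 2 of the post-heartbeat group, the second with the other 3.

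**Figure D1:**
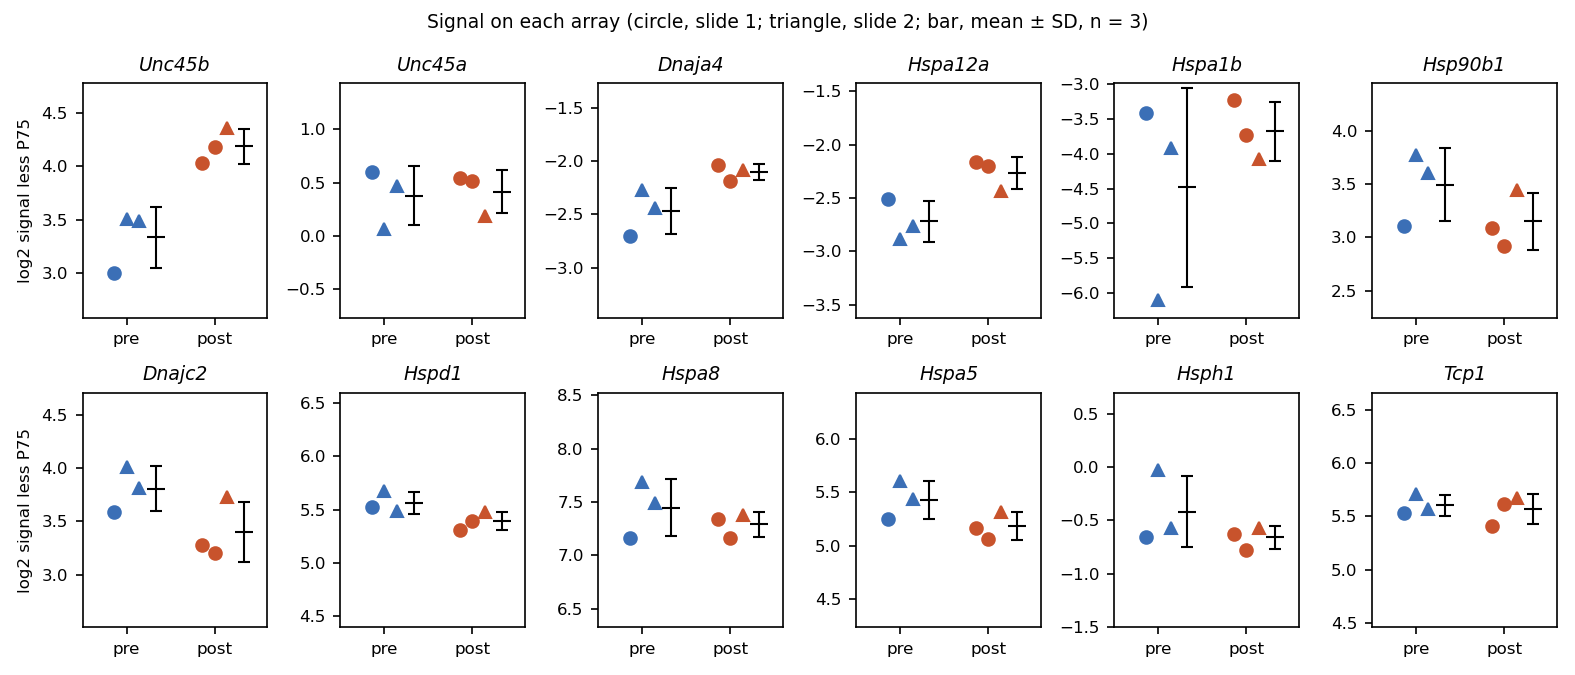
Signal of 12 members on each array, as log2 signal less the 75th percentile of the array (y axis) for the pre-heartbeat (blue) and post-heartbeat (red) groups, with circles for slide 1, triangles for slide 2 and bars for the mean ± SD (n = 3). The post-heartbeat arrays of Unc45b, between 4.03 and 4.36, all lie above the pre-heartbeat arrays, between 3.004 and 3.51, while those of Unc45a and Tcp1 overlap.

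Unc45b, whose probe lies on chr10:71155950-71156009 of the rn4 build, plus strand, read 3.004, 3.51 and 3.49 in the pre-heartbeat group and 4.03, 4.18 and 4.36 in the post-heartbeat group. All 3 post-heartbeat arrays were above all pre-heartbeat arrays. The means were 3.33 ± 0.29 and 4.19 ± 0.16 (SD, n = 3), a difference of 0.86 on the log2 scale (SE 0.19). Unc45b was the single member in the methods' selection as higher, against 1.89% of all tested probes, and 0 members were selected as lower, against 1.15%. With limma its adjusted p was 0.20. After blocking on slide, the difference was 0.98 (SE 0.14) and limma's adjusted p 0.0195, so that 1 member was higher, against 1.16% of all tested probes, and 0 were lower, against 0.461%. Within slide 1 the difference was 1.10 and within slide 2 it was 0.86.

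That call with the block was lost without post-heartbeat replicate 1 (limma adjusted p 0.055), with a difference of 0.996. It was also lost without pre-heartbeat replicate 1 or post-heartbeat replicate 3, with differences of 0.86 and 1.10. Without either of these arrays, 1 slide holds arrays of a single group. The difference then rests on the other slide alone, with 1 array in a group. Those losses therefore do not measure how stable the call was. By the exact permutation test over the arrays, Unc45b gave p = 0.10, two-sided, which is the smallest that 3 arrays against 3 allow.

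Unc45a read 0.60, 0.07 and 0.47 before and 0.54, 0.52 and 0.19 after heartbeat initiation, and the groups overlapped. Its difference of 0.04 had a 95% interval from -0.42 to 0.49. Unc45b less Unc45a, taken array by array and chosen after these values were seen, was 2.96 ± 0.52 before and 3.77 ± 0.36 after (SD, n = 3), a shift of 0.82 (exact permutation p = 0.10, two-sided, the smallest possible).

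Cardiac muscle markers moved with Unc45b. All 14 markers of this list were tested and 14 were higher, with a median difference of 0.62. Their mean level ran from 2.49 to 2.86 over the pre-heartbeat arrays and from 3.32 to 3.36 over the post-heartbeat arrays, without overlap. With limma and no block, 0 of them were called. With the slide as a block, 4 of them were higher, beside 1.16% of all tested probes. These were Myl3, Myh6, Myh7 and Actn2. They encode a myosin light chain, both cardiac myosin heavy chains (the client of UNC45B) and the anchor of actin at the Z disc. These 4 and Tnni1, a troponin of the embryonic heart, were in the methods' selection, beside 1.89% of all tested probes. The 4 calls with the block were lost without post-heartbeat replicate 1 (limma adjusted p 0.052 to 0.085). They were also lost without pre-heartbeat replicate 1 or post-heartbeat replicate 3, where the difference again rests on 1 slide. Those losses do not measure how stable the calls were. The difference of Unc45b (0.86) lay above the median of the 14 markers (0.62). Among the selected markers it lay between those of Tnni1 (0.73) and Myh7 (1.11), and near those of Actn2 (0.84) and Myh6 (0.92). Less the mean of the 14 markers, Unc45b was 0.61 ± 0.09 before and 0.85 ± 0.18 after (SD, n = 3), a shift of 0.23 with overlapping groups (exact permutation p = 0.20, two-sided). The overlap was narrow, with pre-heartbeat replicate 2 at 0.689 and post-heartbeat replicate 1, on the other slide, at 0.685. The part of the muscle content of the samples in the change of Unc45b was not tested.

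With limma and no block, 0 of the 64 tested members were higher, against 0.119% of all tested probes, and 0 were lower, against 0.0207%. At an unadjusted limma p under 0.05, Unc45b and Hspa12a were higher, 2 members against 3.91% of all tested probes, and 0 were lower, against 3.1%. The groups did not overlap with the post-heartbeat group higher for Unc45b, Dnaja4, Hspa12a and Dnajc4, 4 members against 5.38% of all tested probes. They did not overlap with the post-heartbeat group lower for Hspd1 and Dnajc25, 2 members against 6.14%. Those members make up 6.25% and 3.12% of the tested ones.

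The median difference of the tested members was -0.09, beside -0.03 over all tested probes. Of the 64, 44 (68.8%) were lower, beside 55.3% of all tested probes, and 20 (31.2%) were lower within both slides, beside 25.2%. The 95% interval of the difference lay within a change of 1.5 fold in either direction for 44 members (68.8%), beside 43.1% of all tested probes. A larger change of these 44 genes falls outside their intervals, whereas the interval of the other 20 does not bound it so closely.

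**Figure D2:**
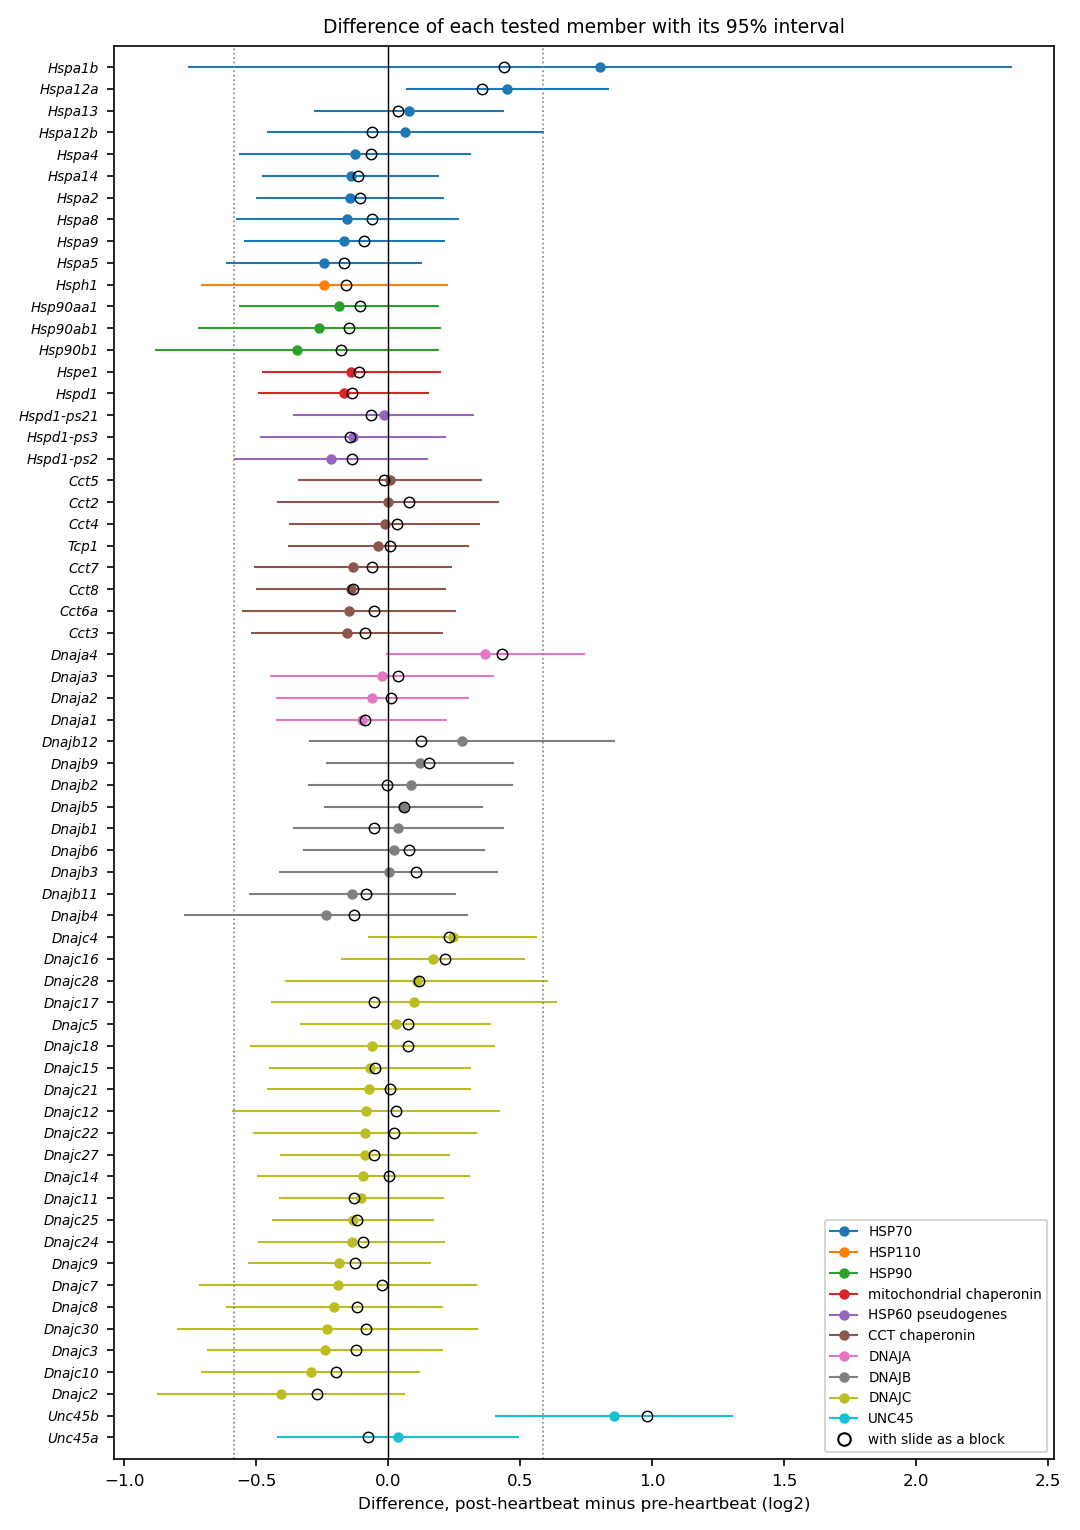
Difference of each of the 64 tested members, post-heartbeat minus pre-heartbeat (x axis, log2), with its 95% interval from limma, coloured by family, and the difference with the slide as a block (open circles). Dotted lines mark a change of 1.5 fold. Unc45b (0.86) stands to the right with an interval that excludes 0, Hspa1b (0.80) has the widest interval, and all others lie between -0.41 and 0.45.

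Among the HSP70 genes, 10 of 12 were tested, 4 were higher and 6 lower, with a median of -0.13 and no call. Hspa8, the constitutive cytosolic HSP70, read 7.16, 7.69 and 7.49 before and 7.34, 7.16 and 7.38 after heartbeat initiation. The groups overlapped and the difference was -0.15 (SE 0.18), with limma adjusted p 0.87. All 4 of its probes were tested, and their differences ran from -0.18 to 0.01. Hspa5, the HSP70 of the endoplasmic reticulum, read 5.25, 5.60 and 5.44 before and 5.17, 5.06 and 5.32 after, a difference of -0.24 (SE 0.16). Its groups overlapped through post-heartbeat replicate 3 and pre-heartbeat replicate 1.

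Hspa9, which draws proteins into mitochondria, differed by -0.17, Hspa4, a nucleotide exchange factor of the HSP110 kind, by -0.12, Hspa14, which sits at the ribosome, by -0.14, and Hspa2, best known from the testis, by -0.15. None of these differences passed, and the limma adjusted p of each was 0.87. Hspa13, a divergent form in microsomes, differed by 0.08.

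The inducible form was represented by Hspa1b, which read -3.42, -6.10 and -3.92 before and -3.24, -3.73 and -4.07 after heartbeat initiation. Pre-heartbeat replicate 2 stood far below the other 5 arrays and was not well above background there. Hspa1b thus entered the tests through the post-heartbeat group, with 3 arrays above background there and 2 before. The difference of 0.80 (SE 0.66, limma adjusted p 0.87) was -0.01 without pre-heartbeat replicate 2. A second probe of Hspa1b was not tested, and it differed by -0.20 at levels from -8.29 to -7.33. Hspa1b had no counterpart Hspa1a by that name among the probes used here, and Hspa1l, a form of the testis, was not tested.

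Hspa12a, a distant relative of HSP70 with an atypical ATPase domain, read -2.51, -2.88 and -2.76 before and -2.16, -2.20 and -2.43 after. All post-heartbeat arrays were higher, by 0.45 on average (SE 0.16), which is 1.37 fold. The limma adjusted p was 0.57, and 0.38 with the slide as a block. Hspa12b, its paralog of endothelial cells, differed by 0.07 with overlapping groups. Hspa12a less Hspa12b shifted by 0.39 (exact permutation p = 0.10, two-sided, the smallest possible), again a contrast chosen after the values were seen.

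Hsph1, the HSP110 that exchanges the nucleotide of HSP70, read -0.65, -0.03 and -0.57 before and -0.63, -0.78 and -0.57 after. One array, pre-heartbeat replicate 2, was above the other 5. The difference was -0.24 (SE 0.20), and -0.05 without that array.

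All 3 HSP90 genes were lower without a call, by a median of -0.26. Hsp90ab1, the constitutive cytosolic form, read 6.73, 7.39 and 7.13 before and 6.76, 6.78 and 6.93 after, a difference of -0.26 (SE 0.19). Hsp90aa1, the form that rises in stress, read 5.18, 5.49 and 5.26 before and 4.97, 5.09 and 5.31 after, a difference of -0.19 (SE 0.16). Both overlapped between groups. Their 6 probes, 3 for each gene, all had negative differences, from -0.43 to -0.13.

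Hsp90b1, the HSP90 of the endoplasmic reticulum, had one of the lowest differences of all members. It read 3.11, 3.77 and 3.60 before and 3.09, 2.92 and 3.44 after, with a difference of -0.35 (SE 0.22). Hsp90b1 was also higher on slide 2 than on slide 1, by 0.56 (limma adjusted p 0.025), and with the slide as a block its difference was -0.18. The other member that differed between slides was Dnajc7, a cochaperone that links HSP70 and HSP90, higher on slide 2 by 0.51 (limma adjusted p 0.020). These were 2 of 64 members (3.12%), beside 18.3% of all tested probes.

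The chaperonin of mitochondria was lower in both of its parts without a call. Hspd1 (HSP60) read 5.52, 5.68 and 5.49 before and 5.31, 5.40 and 5.48 after, so that the groups did not overlap, though post-heartbeat replicate 3 lay just under pre-heartbeat replicate 3. Its difference was -0.17 (SE 0.13, limma adjusted p 0.87). Hspe1 (HSP10), which shares the heat shock elements printed above with Hspd1, read 6.01, 6.31 and 6.21 before and 6.07, 6.06 and 5.98 after, and the groups overlapped with a difference of -0.14 (SE 0.14). A second probe of Hspe1 gave -0.04.

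The array also named 3 pseudogenes of Hspd1, with differences of -0.22 (Hspd1-ps2), -0.13 (Hspd1-ps3) and -0.02 (Hspd1-ps21). The probe of Hspd1-ps2 shared a run of 23 bases of its 60 with that of Hspd1, and the others shared runs of 6. The probes were compared only with each other and not with the whole Hspd1 transcript. Whether the pseudogene probes also take up signal from Hspd1 was therefore not tested, and these 3 values are uncertain.

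The CCT chaperonin showed the narrowest span of the larger families. Of its 8 tested subunits 7 were lower and 1 was higher, between -0.16 and 0.01, with a median of -0.09 and no call. The differences were -0.04 for Tcp1, -0.001 for Cct2, -0.16 for Cct3, -0.01 for Cct4, 0.01 for Cct5, -0.15 for Cct6a, -0.13 for Cct7 and -0.14 for Cct8. All 8 intervals lay within a change of 1.5 fold. Tcp1 read 5.53, 5.71 and 5.57 before and 5.41, 5.62 and 5.67 after, with overlapping groups, and its second probe gave -0.07. Under the slide block, the median of the 8 was -0.04. Cct6b, a subunit of the testis, and Cct8l1 were not tested.

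J proteins of the A class, which resemble bacterial DnaJ, were all tested. Dnaja4 read -2.70, -2.27 and -2.44 before and -2.04, -2.19 and -2.08 after. All post-heartbeat arrays were higher, with a difference of 0.37 (SE 0.16), which is 1.29 fold, and a limma adjusted p of 0.73 (0.32 under the slide block). The others, Dnaja1, which serves the cytosolic HSP70, Dnaja2 and the mitochondrial Dnaja3, differed by -0.10, -0.06 and -0.02.

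Among the B class, 9 of 12 were tested, and 7 were higher and 2 lower, without a call. The median was 0.04, and it turned to -0.01 with normexp background correction. Dnajb1, the classic heat shock J protein, read 1.22, 1.10 and 0.97 before and 1.36, 1.15 and 0.89 after, a difference of 0.04 (SE 0.17). Dnajb6, which keeps aggregates from forming and binds intermediate filaments, differed by 0.02, and Dnajb9, which is induced by the unfolded protein response, by 0.12. Dnajb12, in the membrane of the endoplasmic reticulum, had the highest difference of this class, 0.28 (SE 0.24), with overlapping groups. Dnajb7, Dnajb8 and Dnajb13 were not tested.

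The C class, whose members share little beyond the J domain, had 22 of 25 tested, 5 higher and 17 lower, with a median of -0.09. Dnajc2, a J protein of the ribosome, had the lowest difference of all members. It read 3.59, 4.01 and 3.81 before and 3.27, 3.20 and 3.72 after, and one post-heartbeat array lay among the pre-heartbeat arrays. The difference was -0.41 (SE 0.20, limma adjusted p 0.82), or 1.33 fold lower, and -0.27 with the slide as a block. Dnajc10, a reductase of the endoplasmic reticulum, read 2.32, 2.56 and 2.47 before and 1.91, 2.14 and 2.42 after, a difference of -0.29 (SE 0.17). Dnajc3, an inhibitor of the stress kinases that phosphorylate eIF2α, differed by -0.24 (SE 0.19).

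Dnajc4 read -3.17, -3.02 and -3.15 before and -2.79, -2.84 and -2.97 after, without overlap, with a difference of 0.24 (SE 0.13, limma adjusted p 0.87). Dnajc25 was lower without overlap, by 0.13 on the log2 scale at a limma adjusted p of 0.87. Dnajc17 had 3 probes, of which the brightest gave 0.10 and the others -0.14 and -0.21, none called. Dnajc5b, Dnajc5g and Dnajc6 were not tested, nor was Hspa4l of the HSP110 kind.

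Members were also set out by compartment, in lists that need not be complete, so their medians hold for the listed genes only. For the endoplasmic reticulum, 8 members were listed (Hspa5, Hspa13, Hsp90b1, Dnajb9, Dnajb11, Dnajb12, Dnajc3 and Dnajc10). Of these, 5 were lower and 3 higher, with a median of -0.19 (-0.10 under the slide block). The 3 with an ER stress response element in the promoter, Hspa5, Hsp90b1 and Dnajc3, lay between -0.35 and -0.24. The 7 members listed for mitochondria (Hspa9, Hspd1, Hspe1, Dnaja3, Dnajc11, Dnajc15 and Dnajc30) were all lower, between -0.23 and -0.02, with a median of -0.14 (-0.09 under the slide block). Within both slides, 3 of these 7 were lower, and Dnaja3 was 0.04 higher under the slide block. Lower differences were common, with 68.8% of all tested members and 55.3% of all tested probes. The 6 members with a heat shock element lay between -0.24 and -0.01. No member of these groups was called.

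**Figure D3:**
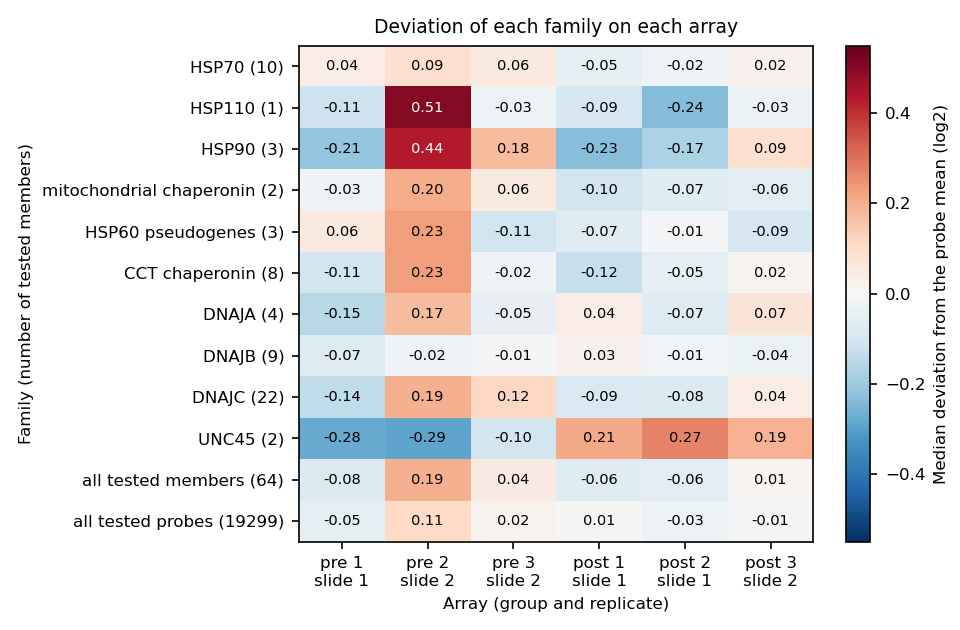
Median deviation of the tested members of each family from the mean of each probe over the 6 arrays (colour and number, log2), for each array (columns, with its slide) and family (rows). Pre-heartbeat replicate 2 is the highest array for most families, at 0.19 over all members, while UNC45 is negative on all pre-heartbeat and positive on all post-heartbeat arrays. The UNC45 row is the median of 2 genes, Unc45b and Unc45a, and the groups of Unc45a alone overlapped.

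Pre-heartbeat replicate 2 stood apart. It had the highest signal of the 6 arrays for 38 of the 64 tested members, and the median deviation of the members on it was 0.19, beside 0.11 over all tested probes. Its 75th percentile was the lowest of all, 1146 of a range up to 1702 intensity units. Without it, 38 members (59.4%) were lower, beside 49.2% of all tested probes, and the median difference was -0.03, beside 0.00. With it, pre-heartbeat replicate 1 was the lowest array for 20 members. HSP90 carried the widest swing of the families with more than 1 tested member, from 0.44 on pre-heartbeat replicate 2 to -0.23 on post-heartbeat replicate 1. The difference of Unc45b without pre-heartbeat replicate 2 was 0.94.

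Other genes of protein folding were taken from lists. Among the genes listed as small heat shock proteins, 9 of 10 were tested and 8 were higher, with a median of 0.73. The gene that was lower, Hspb11 (-0.06), now carries the symbol Ift25, so its place in this family by name is uncertain. Hspb1, the small heat shock protein that guards actin and intermediate filaments, read -2.14, -2.20 and -2.06 before and -0.48, -0.08 and -0.54 after. All post-heartbeat arrays were higher, by 1.77 (SE 0.17), which is 3.40 fold, with limma adjusted p 0.024. The adjusted p lay between 0.056 and 0.19 when any 1 array was left out, and was 0.087 with no filter on low signals. Hspb7 and Hspb8, of heart muscle and of the BAG3 complex, differed by 1.32 and 1.10, and Hspb3 and Hspb2, both of muscle, by 0.90 and 0.73. With the slide as a block, Hspb1, Hspb3, Hspb7 and Hspb8 were higher by limma (adjusted p 0.0061, 0.028, 0.018 and 0.014), beside 1.16% of all tested probes. The call of Hspb3 was lost without post-heartbeat replicate 1 (limma adjusted p 0.075). All 4 calls were lost without pre-heartbeat replicate 1 or post-heartbeat replicate 3. There the difference rests on 1 slide, with 1 array in a group, so those losses do not measure how stable the calls were. All 5 were in the methods' selection. As with Unc45b, the cardiac muscle markers moved with them and their part was not tested.

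The partners of HSP90 held 1 selected gene of 18, beside 1.89% of all tested probes. It was Smyd1, a methyltransferase of striated muscle that acts on myosin folding with UNC45B and HSP90. It read 0.77, 1.33 and 1.07 before and 1.59, 1.73 and 1.63 after, a difference of 0.59 (SE 0.18, limma adjusted p 0.39, and 0.13 with the slide as a block). That is 1.51 fold, just past the threshold of 1.5 fold. Over the alternative settings the difference ran from 0.45 to 0.73. The median of that list was -0.07.

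The remaining lists held no called or selected gene. Their median differences were -0.03 for 14 cochaperones of HSP70 outside the J proteins, -0.07 for 11 prefoldins and partners of the chaperonin, -0.15 for 19 folding factors of the endoplasmic reticulum, 0.03 for 11 heat shock factors and mitochondrial proteases and -0.15 for 6 factors at the ribosome. Of 7 heat shock response genes with a probe, 4 were higher, with a median of 0.04, and Hspb1 was the single gene called. That list shares 5 genes with the members, Hspa1b, Hsph1, Dnajb1, Hsp90aa1 and Hspa8, and none of them passed.

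**Figure D4:**
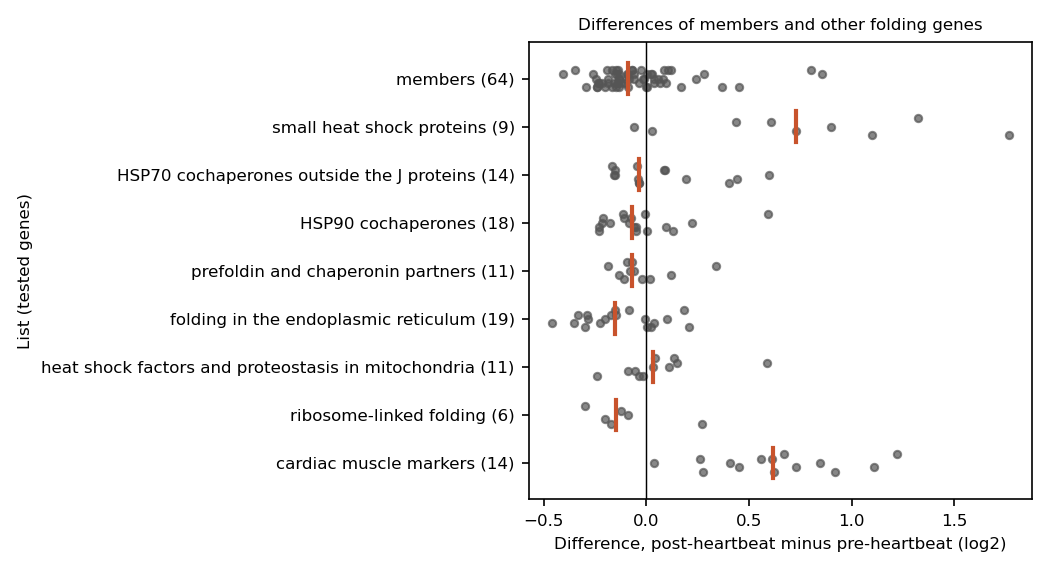
Difference of each tested gene (grey points, log2, post-heartbeat minus pre-heartbeat, x axis) for the members, for 7 lists of other folding genes and for cardiac muscle markers (rows, number of tested genes in brackets), with the median of each (red bar). The small heat shock proteins (median 0.73) and the cardiac muscle markers (0.62) lie to the right of 0, and the members (-0.09) and the other folding lists lie around it.

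Markers of tissues that a dissected primordium could also hold were read on the same arrays. The erythroid list of 9 markers had 6 tested probes, 1 of which stood for both Hba-a1 and Hba-a2, with mean levels from -2.77 to -1.90 before and from -2.27 to -1.89 after, and Hbb was selected as higher while Hbe1 and Gata1 were not tested. Neural ectoderm had 4 of 7 tested, with levels from -2.33 to -1.77 and from -2.72 to -2.32, and Otx2 was lower with limma (difference -1.56, adjusted p 0.020, and 0.056 to 0.21 with 1 array left out), while Pax6 was not tested. Endothelial markers, 7 of 7 tested, ran from -1.05 to -0.58 before and from -1.08 to -0.80 after. Yolk sac endoderm, 9 of 9, ran from -0.31 to 1.15 and from -0.48 to 0.59. Definitive endoderm, 5 of 7 without Sox17 and Shh, ran from -0.81 to -0.52 and from -0.88 to -0.79, and paraxial mesoderm, 4 of 6 without Meox1 and Msgn1, from -1.05 to -0.13 and from -0.21 to 0.18. Immediate early genes, which are no tissue markers and were read beside them, had 7 of 9 tested. They ran from -2.21 to -1.23 and from -1.52 to -1.21, and all 7 were higher (median 0.29) without a call. Of the tissue markers, 4 of 6 erythroid, 1 of 4 neural and 1 of 7 endothelial ones were higher. So were 2 of 9 of yolk sac endoderm, 0 of 5 of definitive endoderm and 4 of 4 of paraxial mesoderm (median 0.39). Neither the cell types behind these markers nor their part in the small differences of the chaperones was tested.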

How the data were processed

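Total RNA of 6 embryonic heart primordium samples was labeled with cyanine 3 from small inputs and hybridized to 1-color Agilent rat arrays. The authors quantified the spots with Agilent Feature Extraction 10.7.3.1 (named in the submitters' processing notes). The deposited processed signal is an intensity with background subtracted and no normalization between arrays. A second table deposited by the authors holds ratios on a linear scale, made by a 75th percentile shift and division by a baseline per probe, used here as an alternative. The other deposited columns hold flags of each spot (well above background, saturated, outlier), and 0 spots were saturated.

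Control spots and outlier spots were left out, and log2 signals less the 75th percentile of the array (1146 to 1702 over the arrays) were averaged over the spots of a probe. Probes flagged above background on each of the 3 arrays of a group entered the tests, 19299 in all, of which 2 had a missing value. Groups were compared with limma 3.58.1 in R 4.3.3, with Benjamini-Hochberg adjustment over all tested probes, and single values by exact permutation over the 10 splits of the arrays into groups (the smallest p is 0.10). The selection of the methods used the Tukey HSD test, which for 2 groups is the pooled comparison of means. limma was tested on simulated data first. Python 3.11.15, pandas 2.3.3, numpy 2.4.6 and matplotlib 3.10.9 were used for tables and plots.

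Groups came from the sample labels. The members and lists were chosen with earlier results of these data known. Named genes were members that were called or selected, the 5 highest and 5 lowest differences, a list of well-known members, and called or selected genes of the other lists. Names are those of the array. Of the 74 members, 65 matched a current RefSeq symbol through their transcript. Probe positions follow the array annotation (rn4), and promoters are on GRCr8. The alternatives were other background corrections, scalings, filters and blocks, the deposited ratios, a mean over the probes of a gene and each array left out. The number of arrays limits the precision.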

Additional observations from a re-analysis of the deposited data

How the results depend on the processing

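No member was called by limma under any setting without the slide as a block, and with it 1 member, Unc45b, was higher. With the slide block and each array left out in turn, which was added after the data were seen, the count of members higher ran from 0 to 1 and that of members lower stayed at 0. Without the block it was 0 in both directions for each array left out, and the methods' selection held 1 higher and 0 lower. With a threshold of 2 fold in place of 1.5 fold, that selection held 0 members higher. The median difference of the tested members ran from -0.14 to -0.03 when 1 array was left out, was -0.06 with the slide block and -0.08 with quantile normalization, and stayed below 0 under each of these and the other planned settings. With the slide block and without post-heartbeat replicate 3 it was 0.01. Of 527 repeats over 33 named members, 526 kept their side of the threshold and 1, Unc45b with the slide block, passed it. These repeats leave out the fits with the slide block and an array removed. There Unc45b also passed without pre-heartbeat replicate 2 (limma adjusted p 0.022) or 3 (0.023) and without post-heartbeat replicate 2 (0.029). In the main fit the lowest limma adjusted p after Unc45b was 0.57 (Hspa12a), so the count of 526 does not measure how stable the differences were. Hspa1b (-0.01) and other small differences turned sign in some repeats by less than the spread between arrays or without a call.

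The deviations of arrays with the same replicate number correlated at 0.65, -0.28 and 0.49, so the numbers were not taken to pair the samples, and not every array correlated best with its own number. With the replicate number as a block, 0 members were higher and 0 lower by limma, the selection held 1 higher and 0 lower, the median was -0.09 and Unc45b had an adjusted p of 0.091. Over all tested probes, limma called 23 higher and 4 lower without a block, 95 and 49 with the replicate block and 223 and 89 with the slide block. Without a block, it called at most 1 in either direction with any 1 array left out, 1 and 0 with no filter on low signals, and 10 to 47 higher and 3 to 11 lower under the other planned settings. With the slide block and 1 array left out, it called 0 to 297 higher and 1 to 139 lower.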
